A study of Mus musculus with 6 samples.

Results

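The genes described here, called members, are 30 genes of iron handling, haem metabolism and iron-sulphur cluster biology, measured by microarray in the 4T1 line of mouse breast cancer cells, which the labels class as triple negative (negative for the oestrogen and progesterone receptors and HER2). The array measures a gene by a transcript cluster, a set of probes along its transcripts. A gene was taken where a cluster carried its symbol alone in the deposited table, and of several such clusters the one brightest on average was used. This gave 28 of the 30 genes, out of 23385 genes tested in all. The 2 others, Nfs1 and Ftl1, lay only on clusters shared with further genes and are given as such. The first group was 4T1 cells after 24 h with bone marrow-derived macrophages polarised to a pro-inflammatory state (PI, 3 arrays), and the second was 4T1 cells after 24 h with macrophages polarised to an anti-inflammatory state (AI, 3 arrays). In both groups macrophages were removed with CD11b microbeads before total RNA was taken. Macrophages of each replicate came from individual mice, while the tumour cells were a single line, and the labels do not give the agents used for polarisation. No 4T1 cells cultured alone were analysed here, so a difference between the groups cannot be assigned to either macrophage state. Values are log2 expression levels after RMA, and differences are PI minus AI.

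Cells take up iron mainly as transferrin bound to the transferrin receptor, release it from endosomes after reduction, and keep what they do not use in ferritin. In mitochondria, iron is built into iron-sulphur clusters on a scaffold protein and inserted into protoporphyrin to make haem, and both cofactors serve respiration, DNA maintenance and nucleotide metabolism. A pair of iron regulatory proteins senses the supply and binds iron-responsive elements, hairpins in messenger RNAs, where they stabilise transferrin receptor RNA and hold back translation of ferritin. In macrophages and tumours the same genes are known as part of the contest for iron during inflammation.

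None of the 28 genes passed the test between PI and AI co-cultures. By limma with Benjamini-Hochberg adjustment over the 23385 genes, 0 of 28 had an adjusted p under 0.05, against 0.0727% of all genes (17 genes), and their adjusted p-values ran from 0.616 to 0.996. All 17 genes that passed were higher in PI, and the smallest difference among them was 0.84 on the log2 scale (1.79-fold). The members' differences were smaller, from -0.23 to 0.25 on that scale. For 27 of 28 genes the 95% interval lay within 0.5 on either side of 0, that is within 1.41-fold, and the exception was Hfe. At an unadjusted p under 0.05, 3 of the 28 genes (Slc11a2, Fech and Cpox) were lower in PI and 0 were higher, against 7.36% of all genes in both directions and 3.31% in the lower one. That count of 3 depended on the setting, from 0 without PI replicate 3 and 1 without AI replicate 3, after a repeated quantile normalisation, with the replicate block or over all clusters, to 9 with dim values floored (7.07%, 6.50%, 6.86%, 7.46%, 5.38% and 8.42% of all genes in those settings).

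Within these limits the values leaned to one side. The log2 difference was negative for 21 of 28 genes, against 52.7% of all genes, and the median was -0.07 against -0.01 over all genes. Under other scalings 19 to 22 members were negative, against 44.6% to 65.5% of all genes. The 22 and the 65.5% were both found after centring of arrays. The PI and AI values did not overlap for 12 of 28 genes (42.9%), against 13.2% of all genes. All PI arrays lay below all AI arrays for 11 genes, or 39.3% of them, against 7.32% of all genes, and all PI arrays lay above all AI arrays for 1 gene, Cp, against 5.85%. These genes were mostly bright, with 24 of 28 above the median level. Among all genes above that level the median difference was -0.03, the negative share was 61.6%, and 10.7% had all PI arrays below all AI arrays. Of the 24 bright members, 19 had a negative difference and 11 had all PI arrays below all AI arrays. The part of signal level in the lean was not tested. The gaps between the groups were narrow, from 0.005 for Cpox to 0.14 for Slc11a2 on the log2 scale. Members were chosen with earlier results of these data known, so their shares are descriptions and not tests. Among 90 other measured genes of these pathways, 68.9% had a negative difference. Arrays did not overlap for 13.3% of those 90, and all PI arrays lay below all AI arrays for 11.1%.

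**Figure D1:**
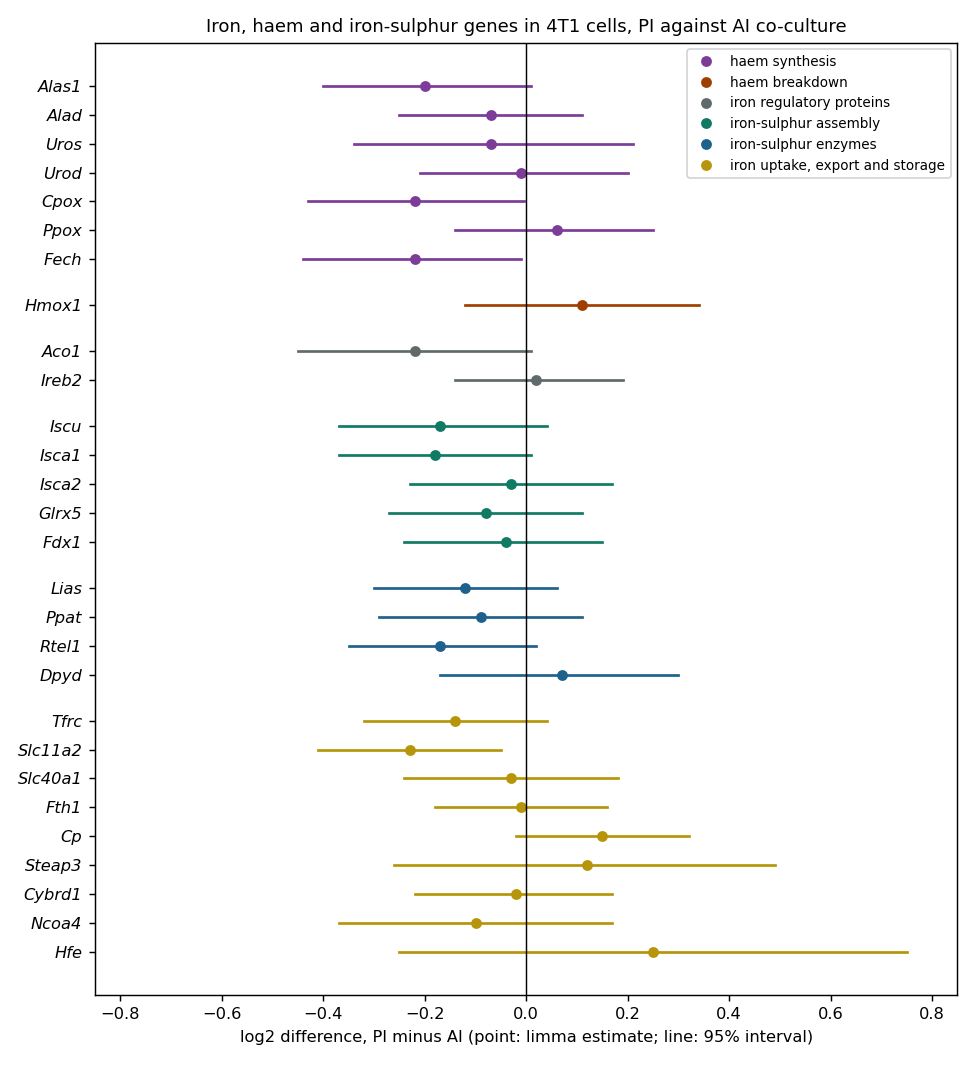
Log2 difference, PI minus AI, of the 28 genes, in rows by role, with the limma estimate as a point and its 95% interval as a line (3 arrays per group). The points lie between -0.23 and 0.25, the intervals of Slc11a2, Fech and Cpox lie just below 0, and Hfe has the widest interval.

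The 6 arrays were alike, with correlations of 0.987 to 0.990 between any pair over all clusters, and array medians of 4.33 to 4.41. Of 9 markers of mammary carcinoma epithelium, 0 passed the test. Their mean level was 6.63 to 6.74 in the PI arrays and 6.76 to 6.87 in the AI arrays, with 6 of 9 differences negative and a median of -0.16, and the keratins Krt8 and Krt18 were at 10.70 and 10.89 in PI and 10.81 and 11.11 in AI. Of 16 macrophage markers, 0 passed, the median difference was 0.00, and their mean level was 4.31 to 4.36 in PI and 4.26 to 4.38 in AI. Itgam, which encodes the depletion target CD11b, was at 2.98 in PI and 2.97 in AI, in the lowest 14.4% of genes by signal. Adgre1 and Csf1r lay at percentiles 34.0 and 27.5, whereas Cd14 and Cd68 lay at 85.1 and 76.7. Mpeg1 had the largest macrophage difference, 0.58, and Cd14 had -0.23. Of 6 erythroid markers 4 were measured, 0 passed, and none lay above the median signal. Of the 3 receptor genes, Pgr lay at percentile 18.2, whereas Erbb2 and Esr1 lay at 80.5 and 56.0. These are transcript levels, while the label gives a class of receptor status, and detection of the transcripts was not tested. These epithelial levels differed in the same direction as most members, and their part in the members' values was not tested. In an RNA fraction such as this, fewer cells of a type and less RNA per cell cannot be told apart.

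Promoter sequence was used for 25 of the 30 genes in 36 windows, from 250 bases before to 50 bases after a RefSeq transcription start of build GRCm38.p6. A chromosome was left out for the members, a limit not set for the comparison over all windows. Slc11a2 and Fech, the members with the smallest p-values, were not among the 25. The windows printed are those of Cpox, the member with the smallest p among the 25, of Tfrc, the main route of iron uptake, and of Cp, whose arrays differed in the other direction. Each is given as 265 bases from 250 before the start. Capitals mark ACGTG, a form of the core that hypoxia-inducible factors bind, and other forms of that core were not searched.
Cpox, chr16:58669958-58670222, + strand: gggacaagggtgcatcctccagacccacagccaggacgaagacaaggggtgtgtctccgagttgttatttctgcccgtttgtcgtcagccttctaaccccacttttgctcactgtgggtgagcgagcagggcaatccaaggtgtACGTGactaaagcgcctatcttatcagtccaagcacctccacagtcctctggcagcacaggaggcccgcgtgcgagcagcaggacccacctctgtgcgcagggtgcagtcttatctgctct
Tfrc, chr16:32608646-32608910, + strand: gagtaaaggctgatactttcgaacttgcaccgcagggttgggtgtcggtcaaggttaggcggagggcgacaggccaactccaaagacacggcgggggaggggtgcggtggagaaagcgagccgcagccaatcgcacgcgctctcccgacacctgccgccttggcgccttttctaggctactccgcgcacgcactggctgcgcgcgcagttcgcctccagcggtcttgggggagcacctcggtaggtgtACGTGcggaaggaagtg
Cp, chr3:19956999-19957263, + strand: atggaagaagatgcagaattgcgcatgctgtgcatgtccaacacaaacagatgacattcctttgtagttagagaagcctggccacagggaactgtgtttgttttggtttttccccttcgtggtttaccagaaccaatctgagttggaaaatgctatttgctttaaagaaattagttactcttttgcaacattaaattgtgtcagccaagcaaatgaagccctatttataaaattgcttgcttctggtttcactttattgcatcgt
ACGTG lay 106 bases before the start in Cpox and across the start in Tfrc. The Cp stretch held none of the motifs searched, though Cp has a further start with its own window. The motifs were ACGTG, the antioxidant response core TGACNNNGC bound by NRF2, and the core TTCNNNGAA of interferon-gamma-activated sites, each on both strands. ACGTG was found in 10 of 36 member windows (27.8%), against 19.6% of all 32851 windows, and its genes were Alad, Cpox, Lias, Ncoa4, Tfrc, Urod and Uros. In Alad, Urod and Uros it read as the palindrome CACGTG, so both strands gave the same site. The 2 windows of Tfrc overlap and hold the same ACGTG site, which is counted in both. TGACNNNGC was found in 4 windows (11.1% against 12.4% of all), those of Hfe, Isca1, Ncoa4 and Nfs1. TTCNNNGAA was found in 1 window (2.8% against 8.3%), that of Alas1. Genes with ACGTG included some whose PI arrays all lay below the AI arrays (Alad, Cpox, Lias and Tfrc) and some whose arrays overlapped (Ncoa4, Urod and Uros). Among genes without ACGTG in their windows, Alas1, Aco1, Isca1 and Rtel1 also had all PI arrays below all AI arrays. A match is a description of letters in these windows and does not show that a factor binds there.

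Haem is made by a chain of enzymes that begins and ends in the mitochondrion, and 7 of them are members. Of the 7, 0 passed, 6 had negative differences (5 after a repeated quantile normalisation or cyclic loess, where Urod turned), and the median was -0.07. The negative share was 52.7% of all genes and 61.6% of those above the median level, where all 7 lay. In 4 of the 7, Alas1, Alad, Cpox and Fech, all PI arrays lay below all AI arrays. That held for 7.32% of all genes and 10.7% of those above the median level. Alas1, the housekeeping aminolevulinate synthase that starts the pathway and sets its rate (transcript cluster 17530653, Entrez 11655), was at 6.84, 6.84 and 6.83 in the PI arrays and at 6.89, 7.07 and 7.14 in the AI arrays. The PI arrays were nearly identical, and the AI arrays spread upward from just above them. The log2 difference was -0.20 (95% interval -0.40 to 0.01; limma adjusted p = 0.695), a 0.873-fold level in PI.

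The middle steps take place in the cytosol. Alad, which joins aminolevulinate into porphobilinogen, was at 8.98, 9.10 and 9.09 in PI and 9.11, 9.15 and 9.13 in AI, a difference of -0.07 with arrays that only just failed to overlap. Uros, which closes the uroporphyrinogen ring, was at 5.80, 5.65 and 5.47 in PI and 5.82, 5.77 and 5.53 in AI (-0.07). Its replicates varied more than its groups did, with an SD of 0.16 in PI and 0.15 in AI. Urod, which decarboxylates that ring, was at 8.48, 8.44 and 8.63 in PI and 8.60, 8.44 and 8.53 in AI, a difference of -0.01 with an interval of -0.21 to 0.20. The groups overlapped throughout for Uros and Urod.

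The last 3 enzymes sit in mitochondria. Cpox, coproporphyrinogen oxidase (cluster 17326428, Entrez 12892), was at 6.98, 7.18 and 6.98 in PI and 7.26, 7.18 and 7.34 in AI. PI replicate 2 and AI replicate 2 were almost level, and the other arrays were well apart. The log2 difference was -0.22 (95% interval -0.43 to -0.004; limma unadjusted p = 0.0470, adjusted p = 0.676). Fech, ferrochelatase, which inserts iron into protoporphyrin and itself holds an iron-sulphur cluster (cluster 17354995, Entrez 14151), was at 7.80, 7.94 and 7.92 in PI and 8.19, 7.98 and 8.15 in AI. All PI arrays were lower, again with AI replicate 2 nearest to them. Its difference was -0.22 (95% interval -0.44 to -0.01; limma unadjusted p = 0.0406, adjusted p = 0.662), a 0.856-fold level. Ppox, the oxidase between Cpox and Fech in the pathway, was at 6.81, 6.84 and 6.96 in PI and 6.75, 6.89 and 6.81 in AI. Its groups overlapped, and its difference was 0.06 with an interval of -0.14 to 0.25.

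Haem is opened by haem oxygenase, which frees its iron. Hmox1, the inducible form and a target of the oxidative stress factor NRF2, was at 7.99, 8.23 and 8.26 in PI and 8.02, 8.0 and 8.14 in AI. PI replicates 2 and 3 were the highest arrays, but PI replicate 1 was the lowest, so the groups overlapped. The difference was 0.11 (95% interval -0.12 to 0.34; limma adjusted p = 0.839).

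The iron regulatory proteins gave estimates of unlike size with overlapping intervals, and they were not tested against each other. Aco1, which is cytosolic aconitase when it carries an iron-sulphur cluster and an RNA-binding iron regulatory protein when it does not (cluster 17412730, Entrez 11428), was at 7.71, 7.67 and 7.42 in PI and 7.86, 7.75 and 7.85 in AI. All PI arrays were lower, and PI replicate 3 was the lowest by a wide margin. The difference was -0.22 (95% interval -0.45 to 0.01; limma adjusted p = 0.692), and it was -0.13 without PI replicate 3. Ireb2, the regulatory protein that is controlled by degradation and has no aconitase activity, was at 8.30, 8.27 and 8.28 in PI and 8.27, 8.25 and 8.26 in AI, a difference of 0.02 (-0.14 to 0.19). Its sign turned to -0.02 when arrays were centred on their medians.

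Of the 6 genes of iron-sulphur cluster assembly, 5 had a cluster of their own. All 5 had negative differences, against 52.7% of all genes and 61.6% of those above the median level, where all 5 lay. Isca2 turned to 0.002 after cyclic loess. The median was -0.08, and 0 passed. Iscu, the scaffold on which clusters are first built (cluster 17440757, Entrez 66383), was at 7.37, 7.52 and 7.54 in PI and 7.70, 7.68 and 7.55 in AI. The groups were separated by only 0.01, between PI replicate 3 and AI replicate 3, and the difference was -0.17 (95% interval -0.37 to 0.04; limma adjusted p = 0.735). Isca1, a late-acting assembly protein of mitochondria (cluster 17293273, Entrez 69046), was at 7.68, 7.66 and 7.67 in PI and 7.74, 7.92 and 7.89 in AI. As for Alas1, the PI arrays were close together while the AI arrays spread upward, and the difference was -0.18 (95% interval -0.37 to 0.01; limma adjusted p = 0.695). Isca2, its partner, did not share this pattern, at 8.35, 8.42 and 8.48 in PI and 8.47, 8.35 and 8.52 in AI (-0.03). Glrx5, the glutaredoxin that passes clusters on from the scaffold, had 2 transcript clusters, both with a difference of -0.08. Arrays of the brighter one overlapped, and in the other the highest PI array and the lowest AI array were both at 10.78. Fdx1, a mitochondrial ferredoxin, had a difference of -0.04 and overlapping arrays.

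The 4 enzymes chosen as users of iron-sulphur clusters had a median of -0.11, with 3 negative values (52.7% of all genes were negative) and 0 past the test. Rtel1, a DNA helicase that protects telomeres (cluster 17380969, Entrez 269400), was at 7.80, 7.91 and 7.78 in PI and 7.94, 8.02 and 8.03 in AI. All PI arrays were lower, by at least 0.02, and the difference was -0.17 (95% interval -0.35 to 0.02; limma adjusted p = 0.704). Lias, lipoic acid synthase, was at 7.77, 7.90 and 7.91 in PI and 8.01, 7.98 and 7.96 in AI, also without overlap, a difference of -0.12 (-0.30 to 0.06). Ppat, the first enzyme of purine synthesis, was at 9.70, 9.87 and 9.90 in PI and 9.96, 9.93 and 9.85 in AI (-0.09), and its groups overlapped. Dpyd, which breaks down pyrimidines, was at 2.94, 2.91 and 3.08 in PI and 3.03, 2.75 and 2.95 in AI. That signal lay in the lowest 13.6% of genes, so its difference of 0.07 says little about the transcript.

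**Figure D2:**
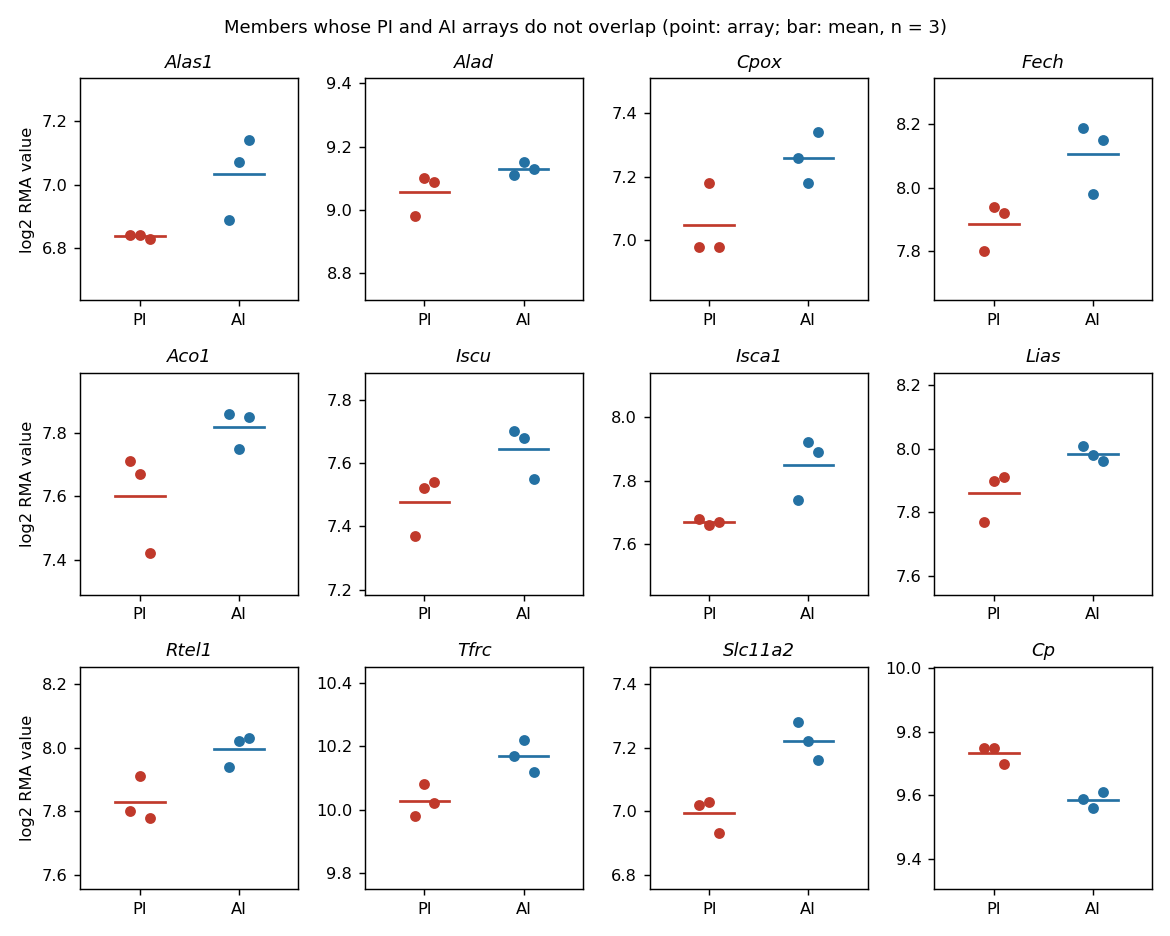
Log2 RMA values of the 12 genes with no overlap between PI and AI arrays, with a point for each array and a bar for the mean (n = 3 per group). Every panel spans the same log2 range. The PI arrays lie below the AI arrays in 11 panels, by gaps of 0.005 to 0.14, and above them for Cp.

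Among genes of iron uptake, export and storage, 9 of 10 had a cluster of their own. They held 6 negative and 3 positive differences (52.7% of all genes were negative), with a median of -0.02 and 0 past the test. Among them was the member with the smallest p, Slc11a2, which encodes DMT1, the transporter that carries ferrous iron out of endosomes and into gut cells (cluster 17321683, Entrez 18174). Slc11a2 was at 7.02, 7.03 and 6.93 in PI and 7.28, 7.22 and 7.16 in AI. The gap of 0.14 between the groups was the widest of any member. The log2 difference was -0.23 (95% interval -0.41 to -0.05, limma unadjusted p = 0.0206, adjusted p = 0.616), a 0.854-fold level. For the same arrays the authors' deposited table gives it a p of 0.00783 and a q-value of 0.662.

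Tfrc, the transferrin receptor that brings iron into the same endosomes (cluster 17324835, Entrez 22042), was at 9.98, 10.08 and 10.02 in PI and 10.17, 10.22 and 10.12 in AI. Its PI arrays also lay below its AI arrays, by 0.04. Its promoter holds the ACGTG core, like that of Cpox and those of members whose arrays overlapped (Ncoa4, Urod and Uros). The difference was -0.14 (95% interval -0.32 to 0.04; limma adjusted p = 0.738), a 0.906-fold level. Both genes are known to have transcripts with iron-responsive elements beyond the coding region. Each was read on 1 transcript cluster, so forms of its transcript were not measured apart. Steap3, an endosomal ferrireductase, was at 4.41, 4.41 and 4.44 in PI and 4.67, 3.98 and 4.26 in AI. The AI arrays lay on both sides of the PI arrays, and the difference of 0.12 turned to -0.05 without AI replicate 2. Cybrd1, the ferrireductase of the gut surface, was at 3.92, 4.00 and 4.00 in PI and 4.04, 4.06 and 3.88 in AI (-0.02), below the median signal of all genes.

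Cp, ceruloplasmin, a copper-containing ferroxidase that helps iron leave cells (cluster 17396260, Entrez 12870), was the only member whose PI arrays all lay above its AI arrays. It was at 9.75, 9.75 and 9.70 in PI and 9.59, 9.56 and 9.61 in AI, with an SD of 0.03 in each group. The log2 difference was 0.15 (95% interval -0.02 to 0.32; limma adjusted p = 0.706), a 1.108-fold level. In the authors' deposited table Cp had the smallest p of the members, 0.00299, with a fold of 0.903 in the direction AI over PI and a q-value of 0.580. Slc40a1, ferroportin, the exporter that ceruloplasmin serves, was at 3.09, 3.00 and 2.99 in PI and 2.94, 3.05 and 3.18 in AI, in the lowest 16.1% of genes by signal. Its groups overlapped, with a difference of -0.03.

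The heavy chain of ferritin scarcely differed between the groups. Fth1, which encodes this chain and its ferroxidase activity (cluster 17357418, Entrez 14319), was at 12.83, 12.82 and 12.87 in PI and 12.87, 12.83 and 12.86 in AI, near the top of the signal range. The difference was -0.01, and the 95% interval of -0.18 to 0.16 corresponds to 0.883-fold to 1.114-fold. Saturation at this signal was not tested. Ncoa4, the receptor that carries ferritin to autophagy for iron release, was at 6.87, 7.06 and 6.68 in PI and 6.91, 6.92 and 7.10 in AI (-0.10), with overlap. Hfe, the MHC class I-like protein that binds the transferrin receptor, had the largest difference of any member in size, 0.25, and also the largest spread. Its values were 5.48, 5.86 and 5.32 in PI and 4.92, 5.30 and 5.70 in AI, the groups overlapped, and the interval ran from -0.25 to 0.75.

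The ferritin light chain and the cysteine desulphurase could be read only with other genes. Ftl1 lay on 6 clusters shared with the loci LOC100862446 and LOC434624, and some of the 6 also with Ftl2. A pair of the 6 held identical values, with all PI arrays below all AI arrays. Among the 6, 0 passed in a limma fit over all 41345 clusters, and differences ran from -0.06 to 0.25. The bright ones, at 12.10 to 12.81 in AI, differed by -0.06 to 0.05, and the 0.25 belonged to a dim cluster at 4.92, 4.59 and 4.70 in PI and 4.74, 4.18 and 4.55 in AI. Nfs1, the desulphurase that supplies sulphur for cluster assembly, lay on 3 clusters shared with Romo1 or with Cpne1 and Rbm12, and all 3 had negative differences. The cluster with the largest difference, shared with Romo1, was at 6.45, 6.28 and 6.26 in PI and 6.62, 6.54 and 6.61 in AI, without overlap. Its difference was -0.26 (95% interval -0.48 to -0.04; limma adjusted p = 0.735 over all clusters), whereas the other cluster shared with Romo1 differed by -0.06, so these signals cannot be assigned to Nfs1.

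Averages over haem synthesis and over iron-sulphur genes did not overlap between PI and AI arrays, but neither did the average over all genes above the median level, and that over uptake, export and storage overlapped. Each array's deviation from the 6-array mean was averaged over the genes of a group, as a description. For the 7 haem genes it was -0.077, -0.032 and -0.048 in the PI arrays and 0.058, 0.039 and 0.060 in the AI arrays. For the 9 genes of iron-sulphur assembly and enzymes it was -0.103, -0.027 and -0.004 in PI and 0.043, 0.041 and 0.051 in AI. PI replicate 1 was the lowest array in both. For the 9 genes of uptake, export and storage it was -0.010, 0.061 and -0.056 in PI and -0.006, -0.035 and 0.046 in AI, which overlapped. The same average over genes above the median level was -0.026, 0.006 and -0.012 in PI and 0.012, 0.009 and 0.011 in AI, likewise without overlap and with PI replicate 1 lowest, on a smaller scale. The difference between the 3 groups of genes was not tested. The median differences of -0.09 for iron-sulphur genes, -0.07 for haem genes and -0.07 over all members were -0.05, -0.15 and -0.04 without PI replicate 1, and the haem median was -0.14 without AI replicate 3.

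**Figure D3:**
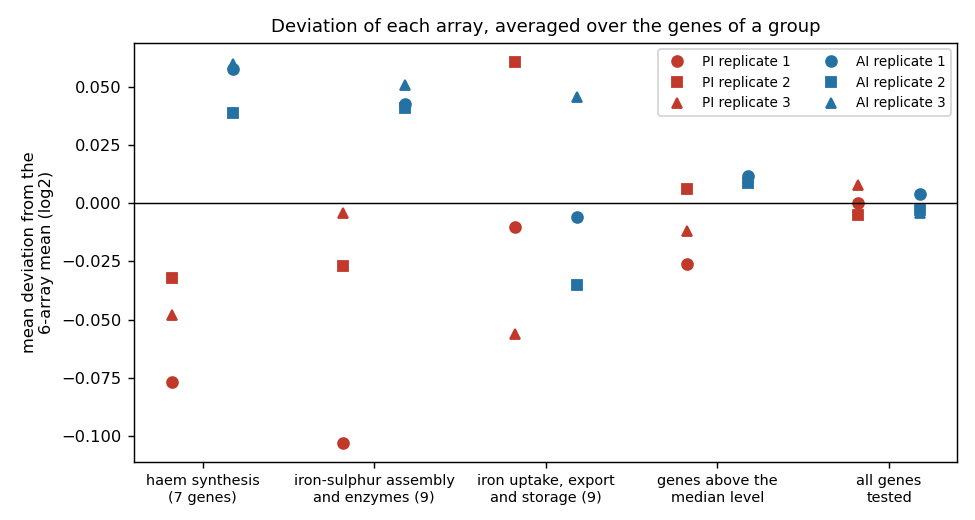
Mean deviation of each array from the 6-array mean (log2), averaged over the genes of each group, with PI arrays in red to the left and AI arrays in blue to the right; symbols mark the replicate number. PI and AI arrays are apart for haem synthesis (-0.077 to -0.032 against 0.039 to 0.060) and for iron-sulphur genes, apart by less for all genes above the median level (-0.026 to 0.006 against 0.009 to 0.012), and overlap for uptake, export and storage.

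The wider pathways held 95 other listed genes, of which 90 were measured and 0 passed in either direction. Their median was -0.04, with 62 negative values (68.9%, against 52.7% of all genes and 61.6% of those above the median level, where 76 of the 90 lay). All PI arrays lay below all AI arrays for 10 of them (11.1%), against 7.32% of all genes and 10.7% of those above the median level. Other genes of haem synthesis, transport and breakdown had a median of -0.02 over 15, with 12 negative, but 8 were negative after a repeated quantile normalisation (median -0.0007) and 7 after cyclic loess (0.002). The smallest p-values there belonged to Tmem14c, a carrier of haem precursors in the mitochondrial membrane, at -0.18 (limma adjusted p = 0.682), and to Abcg2, an exporter of porphyrins, at -0.19 (limma adjusted p = 0.699). Other genes of iron-sulphur assembly had a median of -0.06 over 25, with 21 negative (18 to 22 under other scalings), led by Cisd3 at -0.22 and Ciao2b, of the cytosolic assembly machinery, at -0.20. Most of these genes had the same sign as the assembly members, and all 25 lay above the median level. Their median became -0.03 after cyclic loess, while all genes above the median level had a median of -0.03 in the main fit. Arrays did not overlap for 2 of the 25 (8.0%), against 13.2% of all genes and 15.5% of those above the median level.

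Other iron-sulphur enzymes had a median of -0.05 over 26, with 19 negative (73.1%, and 16 to 22 genes under other scalings). All 26 lay above the median level, where 61.6% of all genes were negative and the median was -0.03. Xdh, xanthine dehydrogenase of purine breakdown, stood on the other side at 7.80 ± 0.26 in PI and 7.36 ± 0.10 in AI (SD, n = 3 each), a difference of 0.44 with all PI arrays higher (limma adjusted p = 0.584). Ndufs8, a subunit of respiratory complex I, was at 8.93 ± 0.04 in PI and 9.14 ± 0.03 in AI (SD, n = 3 each), a difference of -0.21 (limma adjusted p = 0.627). Other genes of iron uptake, export and storage had a median of 0.02 over 24, with 10 negative (41.7%, against 52.7% of all genes). After centring of arrays their median was -0.02, with 13 negative. The smallest p-values were those of Steap4, a metalloreductase, at -0.25, and Meltf, melanotransferrin, at 0.22, both below the median signal. Of 7 listed genes known to carry an iron-responsive element in their transcript, 5 were measured and 0 passed. All of the 5 except Epas1 are members already counted above. All 5 had negative differences, against 52.7% of all genes, with a median of -0.14. The signs held under every scaling tried except flooring of dim values, where Slc40a1 turned. Epas1 and Slc40a1 lay below the median signal, at percentiles 35.5 and 16.1, with overlapping arrays. The 5 included genes with a transcript that holds the element before the coding region (Fth1 at -0.01, Slc40a1 at -0.03 and Epas1 at -0.14). In others it lies after that region (Tfrc at -0.14 and Slc11a2 at -0.23). The 2 others, Ftl1 and Alas2, had no cluster of their own.

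**Figure D4:**
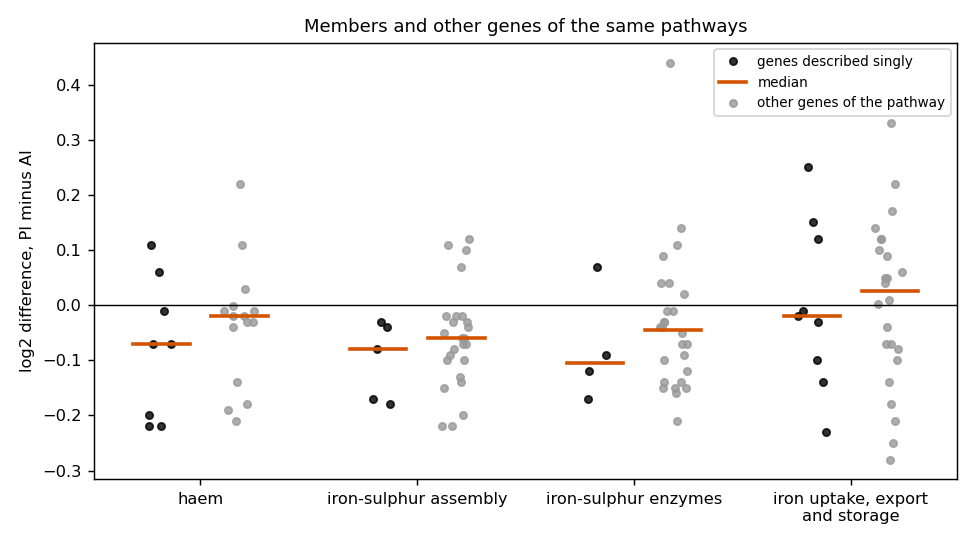
Log2 difference, PI minus AI, of the members (black) and of other genes of the same pathways (grey), with a point for each gene and an orange bar for the median; Hmox1 is counted with haem. The members' medians are -0.07 for haem (Hmox1 included), -0.08 for assembly, -0.11 for enzymes and -0.02 for uptake, export and storage, those of the other genes are -0.02, -0.06, -0.05 and 0.02, and the highest grey point among enzymes is Xdh at 0.44.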

How the data were processed

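The deposited values are log2 expression levels per transcript cluster, and the submitters' processing notes name Affymetrix Expression Console and RMA, which corrects background, normalises arrays to a shared distribution and summarises probes. For versions, genome build and array annotation, nothing is given in the sources used here. The 2 deposited tables held the same values for 41345 clusters on 6 arrays. Per the file headers, the authors also deposited a p-value and q-value for each cluster and a fold ratio, which equalled AI over PI for all 41345 clusters within 1e-05. Their test is not stated. All per-sample columns were used.

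Of the clusters, 24724 carried 1 symbol. Symbols were updated through Entrez identifiers with a RefSeq table of GRCm38.p6, which held 23652 of them, and the brightest cluster of each gene was kept, giving 23385 genes. The PI and AI groups were set against each other in R 4.3.3 with limma 3.58.1 (lmFit and eBayes, group as the only term, two-sided, Benjamini-Hochberg over 23385 genes, threshold 0.05), tested on simulated data. No filter on dim genes was applied. Tables and figures were made in Python 3.11.15 with pandas 2.3.3 and matplotlib 3.10.9. Members, roles, lists and alternatives were chosen with earlier results of these data known, so lists are described by counts and medians without a test. All 30 members are named, and up to 4 called genes, or else the 2 of smallest p, from each wider list. Genes present only on shared clusters were not tested as genes. Some genes of the wider lists are not reported here and were left out of the lists' counts and medians. The median standard error of a member's log2 difference was 0.085, and the number of arrays limits the precision.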

Additional observations from a re-analysis of the deposited data

How the results depend on the processing

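Under 17 alternatives (11 other settings and 6 that each left out 1 array), 0 of the 28 genes passed in any, and the smallest adjusted p of any member was 0.380. The number of members with an unadjusted p under 0.05 was 3, and it was 1 after a repeated quantile normalisation, 7 after centring of arrays, 8 among genes above the median level or with an intensity trend and robust variance, 6 in the unmoderated test, 9 with values floored at the 20th percentile, 1 over all clusters, and 0 to 3 with an array left out, where 5.38% to 9.61% of all genes tested did so over these settings. Negative differences numbered 18 to 22 in all settings, against 44.6% to 65.5% of all genes tested. Members without overlap between groups numbered 12 (42.9%, against 13.2% of all genes), and 8 after quantile normalisation (28.6% against 12.5%), 9 after cyclic loess (32.1% against 12.4%) and 14 after centring (50% against 15.9%). With an array left out they numbered 13 to 15, against 22.0% to 24.5% of all genes, where fewer arrays make separation easier.

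After centring of arrays, 65.5% of all genes had a negative difference, against 52.7% before it. Centring of arrays moved the median to -0.11 over all members, -0.12 for haem synthesis, -0.13 for iron-sulphur genes and -0.07 for uptake, export and storage. The last was -0.06 among genes above the median level, where 6 members remained. With an array left out the medians ran from -0.08 to -0.04, from -0.15 to -0.06, from -0.13 to -0.05 and from -0.04 to -0.001. Signs turned for 9 members, with differences of -0.07 to 0.12, and the cause was not tested. Urod was 0.02 after quantile normalisation, 0.03 after cyclic loess and 0.03 at most with an array left out. Isca2 was 0.002 after cyclic loess, Ireb2 -0.02 after centring, and Slc40a1 0.03 with floored values. With an array left out, ranges that crossed 0 were -0.06 to 0.03 for Urod, -0.08 to 0.01 for Isca2 and Cybrd1, -0.15 to 0.02 for Uros, -0.09 to 0.004 for Fdx1, -0.09 to 0.03 for Slc40a1, -0.01 to 0.13 for Dpyd and -0.05 to 0.30 for Steap3. The other 19 members kept their sign throughout. With the replicate block, 0 members passed and 1 had an unadjusted p under 0.05. Deviations of same-numbered PI and AI arrays correlated at 0.037, -0.019 and 0.044, and of differently numbered arrays at -0.089 to 0.059, so the numbers were not taken to pair the samples. The number of arrays and, for Dpyd, Slc40a1, Cybrd1 and Steap3, signal below the median limit what can be seen.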
